A study of Homo sapiens with 4 samples.

Results

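The genes described here build and load the HLA class I complex, the cell-surface display of intracellular peptides that CD8 T cells and natural killer cells read. They were chosen by name: 8 genes, HLA-B, HLA-C, HLA-E, HLA-F, B2M, TAPBP, ERAP1 and NLRC5, found by symbol among 29286 genes with a value, and all 8 had one. Levels came from RNA sequencing of HCT116, an established human colorectal carcinoma line, in 2 libraries from cells with a control hairpin (shNC, written shNC2 in the sample titles) and 2 from cells with a hairpin against WDR43 (shWDR43). Both groups were infected with lentivirus for 48 h and then kept in puromycin for 3 days, and 1 hairpin label is given for each. WDR43 is a nucleolar protein of small ribosomal subunit assembly, and the comparison asks which transcripts differed once it was knocked down. No value for WDR43 was used here, so the knockdown labels were not checked against their target.

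A class I molecule is a heavy chain bound to the light chain beta-2-microglobulin and a short peptide. HLA-B and HLA-C are classical, highly polymorphic heavy chains, while HLA-E and HLA-F are less variable and are known for binding natural killer cell receptors. The proteasome makes the peptides, the TAP transporter moves them into the endoplasmic reticulum, ERAP1 trims them there, and tapasin, the product of TAPBP, holds empty class I molecules at the transporter until they are loaded. NLRC5 is a transcriptional activator that acts at class I promoters through factors bound to a shared promoter module, and interferon gamma is the classical inducer of the whole group.

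Upstream sequences were available in the RefSeq promoter table (GRCh38.p14) for 6 of the 8 genes, in windows from 250 bases before to 50 bases after each annotated start. HLA-E and NLRC5 had no entry. Those of HLA-B, HLA-C, HLA-F, B2M and TAPBP are shown so that the placement of known class I promoter elements can be compared between 3 heavy chain genes, the light chain gene and a loading gene. Each is the 250 bases before the start, 5′ to 3′ on the gene's strand. They lie at chr6:31357180-31357429 (minus strand, HLA-B), chr6:31272093-31272342 (minus, HLA-C), chr6:29723184-29723433 (plus, HLA-F), chr15:44711267-44711516 (plus, B2M) and chr6:33314079-33314328 (minus, TAPBP). Capitals mark matches, on either strand, to the interferon regulatory factor core AANNGAAA, the core TGACG of the cyclic AMP response element, the CCAAT box CCAAT and the NF-kappaB consensus. These are reference sequences and not those of the alleles in HCT116.
HLA-B: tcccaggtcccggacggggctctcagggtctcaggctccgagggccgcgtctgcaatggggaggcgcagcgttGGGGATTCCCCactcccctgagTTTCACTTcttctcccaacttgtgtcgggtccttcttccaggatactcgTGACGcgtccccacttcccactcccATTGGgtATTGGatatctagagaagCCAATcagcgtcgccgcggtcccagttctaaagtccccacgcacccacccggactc
HLA-C: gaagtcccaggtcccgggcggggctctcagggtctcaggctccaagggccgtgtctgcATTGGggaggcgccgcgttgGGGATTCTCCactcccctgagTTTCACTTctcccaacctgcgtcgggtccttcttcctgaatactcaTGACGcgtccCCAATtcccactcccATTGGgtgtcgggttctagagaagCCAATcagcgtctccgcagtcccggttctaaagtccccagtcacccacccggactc
HLA-F: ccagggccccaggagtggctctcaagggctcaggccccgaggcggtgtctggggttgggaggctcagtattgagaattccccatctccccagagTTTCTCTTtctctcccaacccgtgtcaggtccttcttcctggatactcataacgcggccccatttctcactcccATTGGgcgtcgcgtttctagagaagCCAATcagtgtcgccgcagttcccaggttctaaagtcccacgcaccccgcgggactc
B2M: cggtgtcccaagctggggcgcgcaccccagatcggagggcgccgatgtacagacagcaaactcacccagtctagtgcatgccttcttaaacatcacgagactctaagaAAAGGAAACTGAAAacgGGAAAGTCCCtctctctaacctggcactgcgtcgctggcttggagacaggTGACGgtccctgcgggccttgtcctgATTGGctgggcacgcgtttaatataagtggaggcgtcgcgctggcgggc
TAPBP: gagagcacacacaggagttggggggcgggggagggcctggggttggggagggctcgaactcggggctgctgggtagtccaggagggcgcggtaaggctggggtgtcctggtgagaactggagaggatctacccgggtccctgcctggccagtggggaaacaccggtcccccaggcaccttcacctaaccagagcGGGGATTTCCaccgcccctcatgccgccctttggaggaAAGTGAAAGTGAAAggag

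The promoters of HLA-B and HLA-C placed the searched elements alike, and HLA-F held fewer of them. In HLA-B the AANNGAAA match lay at -155 to -148, TGACG at -106 to -102 and a CCAAT at -56 to -52. In HLA-C the same elements lay at -151 to -144, at -105 to -101 and at -56 to -52. HLA-F had AANNGAAA at -156 to -149 and CCAAT at -57 to -53, with no match to TGACG or the NF-kappaB consensus. Reversed CCAAT matches lay at -81 to -77 and -74 to -70 in HLA-B and at -82 to -78 in HLA-F. In HLA-C they lay at -192 to -188 and -80 to -76, with another forward CCAAT at -95 to -91. B2M had 2 overlapping AANNGAAA matches between -142 and -129, TGACG at -75 to -71 and a reversed CCAAT at -49 to -45. In TAPBP 2 overlapping AANNGAAA matches lay between -18 and -5, and neither TGACG nor CCAAT occurred in the window. ERAP1 had 2 annotated starts, one with AANNGAAA at 3 to 10 past the start and with CCAAT and NF-kappaB matches before it, and the other with 2 overlapping matches between -180 and -168. All 6 genes had AANNGAAA in a window, against 22.8% of 35116 windows of all genes, 3 had TGACG (24.6% of all windows), 5 had CCAAT (34.6%) and 5 had the NF-kappaB consensus (11.3%). AANNGAAA, TGACG and CCAAT occurred together in HLA-B, HLA-C and B2M, and in 1.63% of all windows. Overlaps between different motifs were allowed, and a match describes letters only. Genes were counted once over their windows, and the HLA sequences resemble each other, so these shares do not measure enrichment. Aligned end to end, the upstream sequences of HLA-B and HLA-C were 89.0% identical, those of HLA-B and HLA-F 79.8%, and those of HLA-B and B2M 47.3%.

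HCT116 carried substantial class I mRNA in both groups. Levels are in FPKM, fragments scaled by gene length and mapped total, a unit inferred from the values. From the highest mean to the lowest the order was B2M, HLA-C, HLA-B, HLA-E, TAPBP, HLA-F, ERAP1 and NLRC5. The ranges over the 4 libraries did not overlap between neighbours in this order except for HLA-B and HLA-E, at 59.4 to 79.9 and 61.3 to 70.4 FPKM. Among 13303 genes that reached 1 FPKM in 2 libraries or more, which are those tested, B2M had a mean level above 98.6% of them and HLA-C above 97.7%. ERAP1 was above 23.6%. NLRC5 stayed below 1 FPKM in every library and entered no test.

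**Figure D1:**
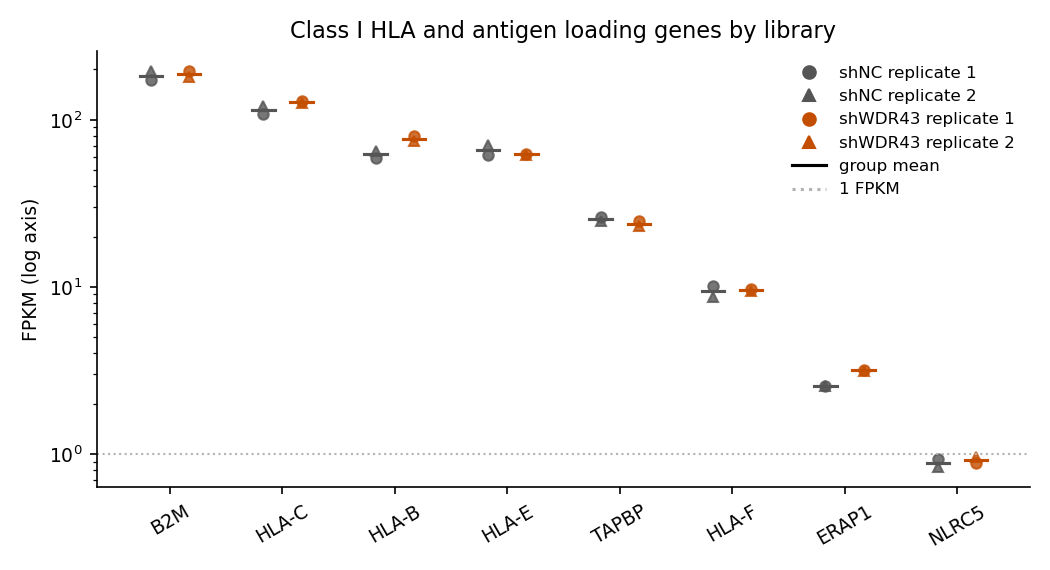
Level of each gene in FPKM on a log axis, with 1 point per library and a short line at each group mean. B2M sits at 173 to 197 FPKM and NLRC5 below the dotted line at 1 FPKM. HLA-B, HLA-C and ERAP1 have their shWDR43 points above both shNC points.

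With all 4 libraries, none of the 7 tested genes passed the test between shWDR43 and shNC (limma on log2 of FPKM + 1, adjusted p below 0.05 over 13303 genes). Over all tested genes 6.26% passed, 4.79% higher and 1.47% lower in shWDR43. That split of 637 higher to 196 lower became 327 to 287 after upper-quartile scaling. HLA-B alone had an unadjusted p below 0.05, as did 26.4% of all tested genes. The groups did not overlap for 4 of the 7, HLA-B, HLA-C, TAPBP and ERAP1, a share near the 57.3% of all tested genes. The median log2 difference of the 7 was 0.036, beside 0.046 for all tested genes. Each group had 2 libraries, and the labels do not name separate cultures. The p-values therefore measure library-to-library spread, which may be technical. In bulk RNA, a smaller share of cells with a transcript and less of it per cell cannot be told apart.

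Among the heavy chains, HLA-B had the widest separation. It was at 59.4 and 65.4 FPKM in shNC replicates 1 and 2, against 79.9 and 74.1 FPKM in shWDR43 replicates 1 and 2. Both knockdown libraries were thus above both controls. Group means were 62.4 ± 4.22 and 77.04 ± 4.08 FPKM (SD, n = 2 per group), a ratio of 1.23. The log2 difference was 0.30 ± 0.09 (SE, 95% interval 0.09 to 0.51), and it did not pass after adjustment (limma adjusted p = 0.0862). In a fit that leaves out 1 library, that group has 1 library left, which is assumed to vary like the pair of the other group. The gene's own spread then comes from that pair alone, and limma moderates it toward the trend over all tested genes. Without shNC replicate 2 the HLA-B difference was 0.37 (limma adjusted p = 0.0135) and without shWDR43 replicate 1 it was 0.25 (limma adjusted p = 0.568).

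HLA-C, the most abundant heavy chain here among the 8 genes, was at 108 and 122 FPKM in the control libraries against 129 and 126 FPKM after knockdown. The groups did not overlap, but shNC replicate 2 lay much nearer to the knockdown libraries than to shNC replicate 1. The log2 difference was 0.15 ± 0.09 (SE, 95% interval -0.07 to 0.37, limma adjusted p = 0.362). Without shNC replicate 2 the HLA-C difference was 0.23, in a fit where each gene's own spread comes from the shWDR43 pair alone.

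HLA-E presents leader peptides of other class I chains to natural killer cells. Its level was 61.3 and 70.4 FPKM with shNC and 62.7 and 61.3 FPKM with shWDR43. The knockdown values lay within the control range or just under it. The log2 difference was -0.083 (95% interval -0.30 to 0.13), and 0.015 without shNC replicate 2. HLA-F was lower, at 10.1 and 8.72 FPKM in the control libraries against 9.72 and 9.40 FPKM after knockdown. Both knockdown values fell between the controls. The log2 difference of HLA-F was 0.025 (95% interval -0.21 to 0.26), with the opposite sign after upper-quartile scaling (-0.040) and without shNC replicate 2 (-0.069).

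Ratios taken inside a library do not depend on how libraries are scaled to each other. Those of HLA-B restate its difference in that form, since it was picked for the widest separation, and the ratio to HLA-C also rests on the division of reads between the 2 genes, which is uncertain. The ratio of HLA-B to HLA-C was 0.548 and 0.538 in the control libraries and 0.621 and 0.590 in the knockdown libraries. The ratio of HLA-B to HLA-E was 0.969 and 0.929 in shNC and 1.27 and 1.21 in shWDR43. Neither ratio overlapped between the groups. The smallest p that an exact permutation test allows for 2 values against 2 is 0.333, so none is given for them.

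**Figure D2:**
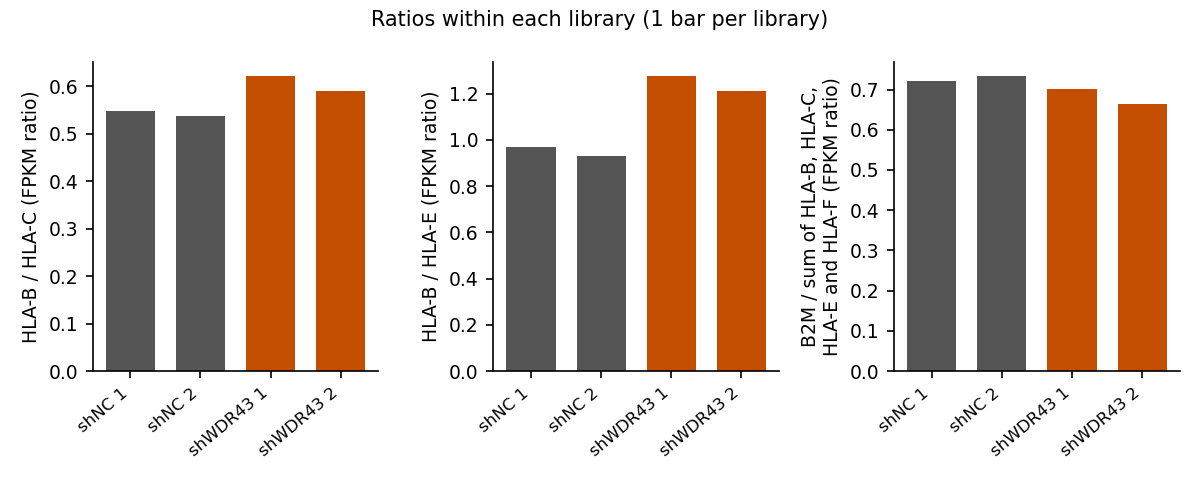
Ratios within each library, 1 bar per library, control libraries in grey and knockdown libraries in orange. The ratio of HLA-B to HLA-C (left) is 0.548 and 0.538 in shNC and 0.621 and 0.590 in shWDR43, that of HLA-B to HLA-E (middle) is above 1 in shWDR43 alone, and B2M over the sum of HLA-B, HLA-C, HLA-E and HLA-F (right) lies between 0.665 and 0.733.

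The light chain gene B2M was the most abundant of the group, at 173 and 195 FPKM in the control libraries against 197 and 179.8 FPKM after knockdown. The groups overlapped, and each held 1 library near the top and 1 near the bottom of the range. Means were 184 ± 15.9 and 188 ± 12.1 FPKM. The log2 difference was 0.036 (95% interval -0.21 to 0.28, limma adjusted p = 0.864), and it was -0.035 after upper-quartile scaling, -0.052 without shNC replicate 1 and -0.030 without shWDR43 replicate 1. Relative to the sum of HLA-B, HLA-C, HLA-E and HLA-F, B2M stood at 0.722 and 0.733 with shNC and at 0.701 and 0.665 with shWDR43. Both knockdown ratios were thus below both control ratios. The sum holds HLA-B and HLA-C, whose groups did not overlap, while those of B2M did, so this ratio in part restates their differences. For single genes, the groups did not overlap in 57.3% of all tested genes.

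In peptide loading and trimming, TAPBP was at 26.2 and 24.8 FPKM in the control libraries against 24.6 and 23.2 FPKM after knockdown. The groups did not overlap, by a narrow gap between shNC replicate 2 and shWDR43 replicate 1. Its log2 difference was -0.089 (95% interval -0.28 to 0.10, limma adjusted p = 0.537). ERAP1 was at 2.54 and 2.56 FPKM in the control libraries against 3.18 and 3.14 FPKM after knockdown, with libraries of a group almost equal and a clear gap between groups. The ratio of means was 1.24, close to the 1.23 of HLA-B. On the log2(FPKM + 1) scale, which understates changes of low genes, the ERAP1 difference was 0.23 ± 0.11 (SE, 95% interval -0.03 to 0.49, limma adjusted p = 0.233), and it was 0.30 with a pseudocount of 0.1 (limma adjusted p = 0.236). ERAP1 ends inside CAST, the calpastatin gene, which lies on the opposite strand and was at 62.8 and 63.6 FPKM in the control libraries against 72.7 and 78.0 FPKM after knockdown. Whether the counting used strand was not stated in these sources, so reads of ERAP1 and CAST cannot be told apart where they overlap.

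The activator gene NLRC5 was at 0.931 and 0.829 FPKM in the control libraries against 0.888 and 0.956 FPKM after knockdown. These values overlapped. With no filter on low values, its log2 difference was 0.032 (95% interval -0.27 to 0.34, limma adjusted p = 0.924).

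**Figure D3:**
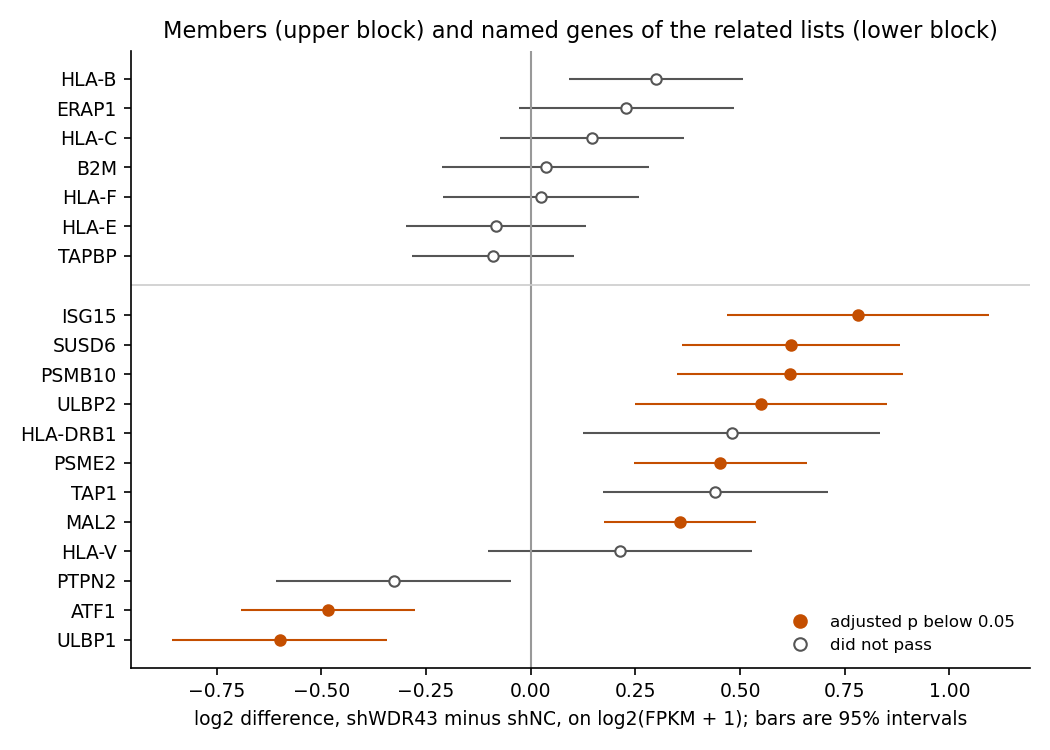
Log2 differences between shWDR43 and shNC on the log2(FPKM + 1) scale, with 95% intervals from limma, for the 7 tested genes (upper block) and for named genes of related lists (lower block). Filled points passed at an adjusted p below 0.05, and all 7 points of the upper block are open, with HLA-B at 0.30 the only one whose interval lies above 0.

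Position and sequence bear on how far single levels can be trusted. In GENCODE release 29 on GRCh38, HLA-F (29722775 to 29738528), HLA-E (30489467 to 30494205), HLA-C (31268749 to 31272130), HLA-B (31269491 to 31357188) and TAPBP (33299694 to 33314387) lie on chromosome 6 in the major histocompatibility complex. ERAP1 lies on chromosome 5 (96760810 to 96808100), B2M on chromosome 15 (44711487 to 44718877) and NLRC5 on chromosome 16 (56989485 to 57083531). That annotation gives HLA-B a span that overlaps most of HLA-C on the same strand, so the division of reads between HLA-B and HLA-C is uncertain. Of all 50-base stretches in the longest coding transcript of each gene, 2.54% for HLA-B, 6.71% for HLA-C, 5.13% for HLA-E, 1.70% for HLA-F and 6.09% for TAPBP also occurred in transcripts of other genes. For B2M, ERAP1 and NLRC5 the share was 0. These are reference transcripts and not those of the alleles in HCT116. How well reads of those alleles match them was not tested, so the levels and order of the polymorphic heavy chains are uncertain. The read length was not stated in these sources. HLA-F overlaps HLA-F-AS1 on the opposite strand, which was at 5.33 and 4.44 FPKM in the control libraries against 6.18 and 5.43 FPKM after knockdown, so the level of HLA-F is also uncertain.

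From HLA-F to TAPBP on chromosome 6, 103 other genes were tested, of which 1 rose and 1 fell, with a median log2 difference of -0.0049. The gene that rose was SLC39A7, a zinc transporter gene, from 38.8 ± 3.07 to 52.9 ± 0.383 FPKM. ENSG00000284954, which has no symbol described here, fell from 3.95 and 2.50 FPKM to 1.11 and 1.40 FPKM. Both were named after their values were seen.

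The other genes of class I presentation were given by 6 lists that cover heavy chains, loading, the immunoproteasome, transcription factors, interferon gamma receptor signalling and regulators of surface level. Of 58 such genes outside the 8, 50 were tested, of which 4 rose and 1 fell, beside 4.79% and 1.47% of all tested genes. Their median log2 difference was 0.093. By unadjusted p below 0.05, 14 were higher and 5 lower, beside 17.8% and 8.63% of all tested genes. Fits on 3 libraries gave other counts, for these genes and over all tested genes. Without shNC replicate 1, 12 of these genes passed (13.6% of all tested genes), and without shNC replicate 2, 13 did (19.8%). Without shWDR43 replicate 1 (2.88% of all) and without shWDR43 replicate 2 (3.42%), 0 passed. With either scaling 3 passed, and with no filter on low values, where 17 genes over all did, none of PSMB10, PSME2, ATF1, SUSD6, MAL2, ULBP1, ULBP2 and ISG15 passed.

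Immunoproteasome genes, which encode the inducible proteasome that favours class I peptides, had 2 of 4 tested members that rose. Over all tested genes 4.79% rose, and a list of 4 is too short to compare with that share. PSMB10, an inducible catalytic subunit, was at 1.68 and 1.69 FPKM in the control libraries against 3.16 and 3.09 FPKM after knockdown. The ratio was 1.85, with a log2 difference of 0.62 ± 0.12 (SE, limma adjusted p = 0.0317). PSME2, a subunit of the PA28 activator, went from 30.6 and 33.8 FPKM to 46.2 and 42.7 FPKM, a log2 difference of 0.45 ± 0.09 (limma adjusted p = 0.0343). Without shWDR43 replicate 1 the limma adjusted p was 0.111 for PSMB10 and 0.187 for PSME2, and without shWDR43 replicate 2 it was 0.0821 and 0.0519. The log2 differences in these fits were about as large, at 0.61 and 0.63 for PSMB10 and at 0.40 and 0.51 for PSME2. PSME2 also did not pass after median-ratio scaling (limma adjusted p = 0.0602) or upper-quartile scaling (0.0514). Of the other inducible catalytic subunits, PSMB9 had a log2 difference of 0.051 and PSMB8 was below 0.24 FPKM in all libraries. PSME1, the remaining tested gene of the list, overlapped between the groups (log2 difference 0.080). It was at 67.5 and 77.4 FPKM in the control libraries against 79.0 and 74.0 FPKM after knockdown.

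In the loading list, 0 of 7 tested genes outside the 8 passed with limma. There were 2 higher and 2 lower at a limma unadjusted p below 0.05, beside 17.8% and 8.63% of all tested genes. The transporter gene TAP1 was at 7.39 and 9.24 FPKM in the control libraries against 11.3 and 11.8 FPKM after knockdown, a log2 difference of 0.44 ± 0.12 (limma adjusted p = 0.0644). TAP1 passed when only genes at 5 FPKM or more were tested (limma adjusted p = 0.0470) and without shNC replicate 2 (0.00756). Its partner TAP2 had a log2 difference of 0.38 (limma adjusted p = 0.0759). The chaperone genes CANX and PDIA3, whose products fold new heavy chains among many other proteins, had differences of -0.28 each (limma adjusted p = 0.117 and 0.137). TAP2, CANX and PDIA3 were named after their values were seen. Heavy chain genes and pseudogenes outside the 8 had 0 of 4 that passed, with 0 at an unadjusted p below 0.05, and HLA-V, a pseudogene, came nearest at a log2 difference of 0.21.

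Of 18 tested transcription factors of class I genes, 0 rose and 1 fell. At a limma unadjusted p below 0.05, 3 were higher and 1 lower, beside 17.8% and 8.63% of all tested genes. ATF1, a factor of the CREB family, went from 12.8 and 12.2 FPKM to 8.46 and 8.87 FPKM, a log2 difference of -0.48 ± 0.09 (limma adjusted p = 0.0313). Both knockdown values were well below both controls, but ATF1 did not pass without shWDR43 replicate 1 (-0.45, limma adjusted p = 0.132) or without shWDR43 replicate 2 (-0.52, limma adjusted p = 0.0649), with log2 differences about as large. Interferon gamma receptor signalling had 0 of 6 that passed with limma. There were 2 higher and 1 lower at a limma unadjusted p below 0.05, beside the same shares of all tested genes. PTPN2, a phosphatase gene known to restrain this signalling, came nearest, at 26.6 and 33.3 FPKM with shNC and 25.0 and 22.1 FPKM with shWDR43, a log2 difference of -0.33 (limma adjusted p = 0.137), and it passed without shNC replicate 1, at -0.48 (limma adjusted p = 0.0203).

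Regulators of class I surface level had 2 of 11 tested members that rose and 0 that fell. At a limma unadjusted p below 0.05, 5 were higher and 1 lower, beside 17.8% and 8.63% of all tested genes. SUSD6, whose product is known to direct class I molecules to degradation, was at 2.29 and 2.08 FPKM in the control libraries against 3.89 and 3.91 FPKM after knockdown. Its ratio was 1.78 and its log2 difference 0.62 ± 0.11 (limma adjusted p = 0.0295). MAL2, a membrane trafficking gene linked to class I uptake, went from 57.5 and 58.7 FPKM to 74.6 and 74.8 FPKM, a log2 difference of 0.36 (limma adjusted p = 0.0421). Without shWDR43 replicate 1 the limma adjusted p was 0.0746 for SUSD6 and 0.304 for MAL2, and without shWDR43 replicate 2 it was 0.0712 and 0.286. The log2 differences hardly moved, at 0.62 in both fits for SUSD6 and at 0.36 and 0.35 for MAL2. MAL2 did not pass after median-ratio (0.0767) or upper-quartile scaling (0.0704) either.

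Further lists bordered on the class I genes. Of 10 tested class I-like molecules and ligands of the natural killer receptor NKG2D, 1 rose and 1 fell, in the same gene family. At a limma unadjusted p below 0.05, 5 were higher and 1 lower, beside 17.8% and 8.63% of all tested genes. ULBP1 went from 6.01 and 5.27 FPKM to 3.48 and 3.27 FPKM, a log2 difference of -0.60 ± 0.11 (limma adjusted p = 0.0313), and it did not pass without shWDR43 replicate 2, at a log2 difference about as large (-0.56, limma adjusted p = 0.0668). ULBP2 went the other way, from 5.31 and 6.14 FPKM to 9.92 and 7.86 FPKM, a log2 difference of 0.55 ± 0.13 (limma adjusted p = 0.0497). ULBP2 did not pass without shNC replicate 1 (0.0644), without shWDR43 replicate 1 (0.268, at a log2 difference of 0.40), after either scaling (0.0679 in both), or with robust settings off (0.0528).

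Class II genes, normally restricted to professional antigen-presenting cells, had 11 of 13 with a value and 4 tested, of which 0 passed with limma. Only 1 had a limma unadjusted p below 0.05, beside 26.4% of all tested genes. This was HLA-DRB1, at 0.630 and 0.817 FPKM in the control libraries against 1.54 and 1.27 FPKM after knockdown (limma adjusted p = 0.0991). Among 11 tested interferon-stimulated genes, 2 were higher and 1 lower at a limma unadjusted p below 0.05. The shares of all tested genes were 17.8% and 8.63%. After adjustment 1 rose and 0 fell, beside 4.79% and 1.47% of all tested genes. That gene was ISG15, a ubiquitin-like modifier, at 29.3 and 39.7 FPKM in the control libraries against 60.1 and 58.7 FPKM after knockdown, a log2 difference of 0.78 ± 0.13 (limma adjusted p = 0.0263).

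Genes whose profile over the 4 libraries lay nearest to that of HLA-B, by root mean square distance of centred log2 values among genes whose mean level was 5 FPKM or above, were CRABP2 (0.00364), TRAPPC1 (0.00432), UFD1 (0.00755) and RPS21 (0.00862). They encode a retinoic acid binding protein, a vesicle tethering subunit, a cofactor in protein extraction from the endoplasmic reticulum and a ribosomal protein. CRABP2 was at 215 and 237 FPKM in the control libraries against 287 and 268 FPKM after knockdown, and its log2 difference was 0.30, as for HLA-B. With 4 libraries this is a description of profiles only.

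Marker levels were those of an epithelial line. FPKM values summed to 393582 to 413758 per library, and no read totals were at hand, which leaves the depth of every level unknown. All 6 epithelial markers were above 1 FPKM in every library, with a summed level of 1771 and 2103 FPKM in shNC and of 2556 and 2525 FPKM in shWDR43, a sum made up mostly of the keratins KRT8, KRT18 and KRT19. KRT8 and CLDN4 rose (log2 differences 0.50 and 1.06), KRT18 and KRT19 did not pass (0.44 and 0.36), and EPCAM and CDH1 overlapped between the groups (-0.069 and -0.11). Of 10 immune cell markers 5 had a value, with a summed level of 1.49 to 2.08 FPKM, of which ITGAX was 1.16 to 1.83 FPKM, and CD14 and NKG7 were each listed at 0 in 2 libraries. Of 7 stromal and endothelial markers 6 had a value, and those other than COL1A1 were at most 0.128 FPKM, with COL1A1 at 5.69 to 7.80 FPKM. The part of the keratin and CLDN4 differences in the class I values was not tested.

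**Figure D4:**
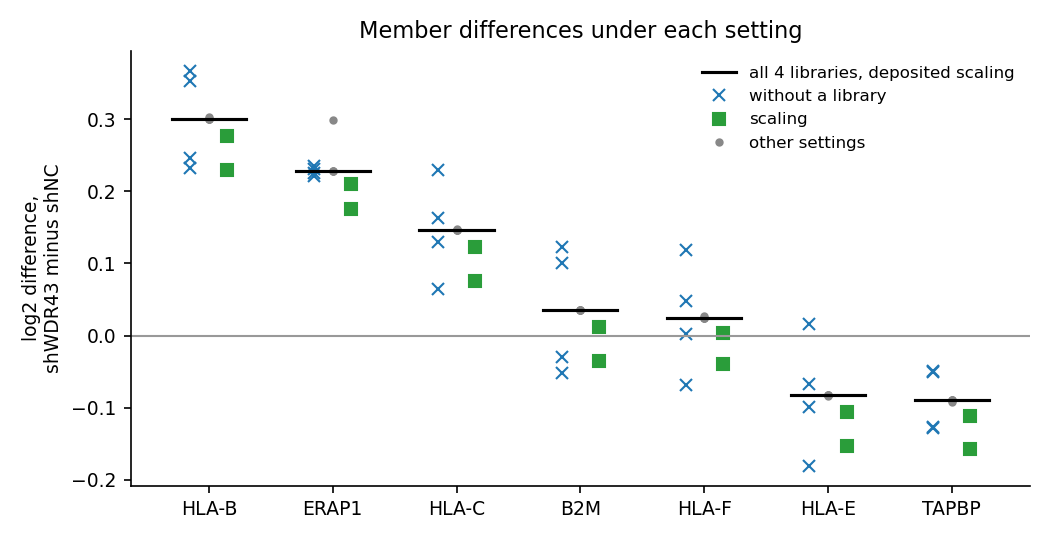
Log2 difference of each tested gene with all 4 libraries (black line) and under each alternative, where crosses leave out 1 library, squares rescale the libraries and dots are other settings. HLA-B ranges from 0.23 to 0.37 and ERAP1 from 0.18 to 0.30, all above 0, TAPBP from -0.16 to -0.049, all below 0, and B2M, HLA-F and HLA-E have points on both sides of 0.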

How the data were processed

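RNA was sequenced from 4 HCT116 libraries, 2 per group. Per the submitters' processing notes, the authors used CASAVA 1.8, edgeR, FastQC, HISAT2, RSEM and Trimmomatic with GRCh38, with no role or order given, and 1 table was deposited per library. The deposited values were read as FPKM, fragments scaled by the authors by length and mapped total, from their size, and TPM over part of the genes would look alike. Low values showed no whole-read steps (at most 1.01% of low genes in a 1% window of ratios), so no reads were recovered. One blank entry was left out, and 29170 of 29286 genes had a symbol.

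Differences on the log2(FPKM + 1) scale were fitted by limma (version 3.58.1, under R 4.3.3) for genes reaching 1 FPKM in 2 libraries or more, with empirical Bayes trend and robust settings, two-sided, and Benjamini-Hochberg adjustment over 13303 genes at 0.05. The fit was tested on simulated data with planted changes larger than any difference of the 8 genes. Differences of their size were not simulated. The 8 genes and the lists were chosen with earlier results of these data known. Named are the 8, up to 4 passing genes per list or the nearest, the 4 profiles most like that of the gene with the smallest p, and overlapping genes. Alternatives were a pseudocount of 0.1, no filter, a filter at 5 FPKM, 2 scalings, no robust settings, the replicate number as a block, and the omission of each library in turn. Motifs and alignments used Python 3.11.15, pandas 2.3.3 and biopython 1.88, and figures matplotlib 3.10.9.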

Additional observations from a re-analysis of the deposited data

How the results depend on the processing

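None of the tested class I genes passed in any fit of all 4 libraries other than the crossed block below, where the number over all genes was 809 with a pseudocount of 0.1, 17 with no filter and 452 after median-ratio scaling. Leaving out 1 library gave 377 to 2586 genes over all, 0 to 2 of the class I genes (HLA-B and HLA-C, without shNC replicate 2), and 0 to 13 of the other presentation genes. That last count was 0 with no filter and 3 after median-ratio scaling, after upper-quartile scaling and with the replicate block. The replicate block gave 563 genes over all and 0 of the class I genes, and PSME2 (limma adjusted p = 0.0509), MAL2 (0.0932) and ULBP2 (0.0533) did not pass with it. Same-numbered libraries did not deviate together (r = -0.147 across 13303 genes), and a crossed block, added after the data were seen, gave 1954 genes over all, 1 class I gene and 11 other presentation genes. Signs turned for HLA-E (-0.18 to 0.015 over the left-out libraries, 0.015 without shNC replicate 2), HLA-F (-0.069 to 0.12, -0.040 after upper-quartile scaling, -0.069 without shNC replicate 2) and B2M (-0.052 to 0.12, -0.035 after upper-quartile scaling, -0.052 without shNC replicate 1, -0.030 without shWDR43 replicate 1). Of the single-gene values under alternatives, 200 kept direction and side of the threshold, 31 no longer passed, 9 newly passed and 6 turned sign. The cause was not tested, and with an unknown depth no counting error is given.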
